A study of Mus musculus with 26 samples.

Results

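The 8 genes Casp6, Casp8, Bax, Bcl2, Bcl2l1, Mcl1, Bbc3 and Pmaip1 were taken by their symbols, a list drawn up with earlier results of these data known. All 8 were among the 53465 genes listed for regenerating muscle and the 55487 listed for C2C12 cells. The first table covers skeletal muscle, named as tibialis anterior (TA) muscle of C57BL/6J mice in the methods, injured with cardiotoxin (CTX), a toxin of cobra venom that destroys muscle fibres, and sampled on days 0, 1, 3, 5 and 10, with 2 libraries for each day. The labels call the uninjured muscle day 0, the methods name saline as the control, and neither says whether the libraries of a day came from separate animals, so a p-value here measures the spread between these libraries. The second table covers C2C12, a mouse myoblast line, as control cells (CTRL) and as cells with lowered Mettl3 (Cas9M3), in growth medium (GM, labelled day 0) and after 3 days in differentiation medium (DM3), with 2 libraries in each of the 4 groups. Per the methods, Cas9M3 cells are a stable, puromycin-selected lentiviral line in which dCas9-KRAB, a repressor driven by the hUbC promoter, is guided to the Mettl3 promoter. The series' design text calls such derivatives a knockout.

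Cells decide between survival and apoptosis largely at the outer membrane of the mitochondrion, where members of the Bcl2 family meet. The survival members Bcl2, Bcl2l1 (Bcl-xL) and Mcl1 hold the pore-forming member Bax in check, and BH3-only members such as Bbc3 (Puma) and Pmaip1 (Noxa) bind the survival members and release that check. Once the membrane is open, caspases are cleaved into active enzymes. Casp8 is an initiator caspase that works below the death receptors, and Casp6 is an executioner caspase. Caspase activity is also known to accompany the differentiation of myoblasts, so these genes are of interest in muscle beyond the loss of cells.

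The deposited values are FPKM, fragments scaled by gene length and by a factor for each library. Levels can thus be set side by side between genes as well as between libraries of a table. The factor was not the number of reads on genes alone. In muscle, 1 read on 1 kb stood for 0.0803 FPKM in replicate 1 of day 0, with 16776205 reads. It stood for 0.0507 FPKM in replicate 1 of day 3, with 14326348 reads. Differences between days rest on this factor, and scaling by read number was not tested. All 8 genes were tested, as they reached at least 0.5 FPKM in at least 2 libraries of each table, among 16753 genes in muscle and 13824 in C2C12 cells. Differences were taken on the log2(FPKM + 0.1) scale, which understates the change of low genes, and were called with limma where the adjusted p was 0.05 or less, with Benjamini-Hochberg adjustment over all genes tested in the table. With 2 libraries against 2, an exact two-sided permutation test cannot go below 0.333, so each p rests on the spread that limma shares between groups and genes. The muscle libraries held 14174079 to 18823229 reads on genes and the C2C12 libraries 14230094 to 29567085.

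Several libraries stood apart from their labels or from each other. In muscle, Xist, the RNA of the inactive X chromosome, was at 5.77 FPKM or more in both day 0 libraries, both day 10 libraries and replicate 2 of day 3, and at 0.152 FPKM or less in the other 5, which expressed Y-linked genes, while the methods name male mice. Apart from day 3, this split cannot be told apart from the day. The markers of other cells also moved with the day: the summed level of 8 macrophage and monocyte markers was 47.0 to 96.8 FPKM on day 0, 323 to 391 on day 1, 1576 to 1615 on day 3, 461 to 526 on day 5 and 71.7 to 274 on day 10, and that of 6 mature fibre markers was 44560 to 47378 FPKM on day 0 and 11408 to 13189 on day 3. From day 0 to day 3 the sum of 7 myoblast and new myotube markers went from 39.7 to 55.3 FPKM to 1003 to 1506, and that of 4 markers of cycling cells from 0.269 to 2.15 FPKM to 8.39 to 18.7. Their part in the results below was not tested, and in bulk muscle a change in the number of cells of a type and a change in RNA per cell cannot be told apart. In C2C12 cells, Mettl3 was at 4.68 to 5.65 FPKM in the 4 control libraries and at 0.0805 to 0.331 FPKM in the 4 Cas9M3 libraries. The log2 fold change of Mettl3 was -4.10 ± 0.40 (SE) in GM, with an adjusted p of 0.188, and -4.56 ± 0.40 on DM3, with an adjusted p of 0.0187. Ribosomal RNA took 0.521% to 0.700% of the reads in the replicate 1 libraries and 8.24% to 28.1% in the replicate 2 libraries.

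For the genes that were higher on day 3 and for which RefSeq (GRCm38.p6) gives a promoter, the window from 250 bases before to 50 bases after the transcription start is shown for orientation. RefSeq windows were matched for 7 of the 8 genes, Pmaip1 being the exception, and came to 11 windows. Capitals mark GGGCGG, the core of a GC box, and CACGTG, an E-box, read on both strands. The window of Casp6 lies at chr3:129901165-129901464 on the plus strand, Casp8 at chr1:58802252-58802551 on the plus strand, Bax at chr7:45466849-45467148 on the minus strand, and the window of Bbc3 shown at chr7:16310181-16310480 on the plus strand. Bbc3 has 3 windows, and the one shown was picked because it alone holds CACGTG. The windows shown for Casp8 and Bbc3 lie inside the genes, which begin at 58795374 and 16308393 in the GENCODE M21 annotation. They do not cover those annotated gene starts.
Casp6: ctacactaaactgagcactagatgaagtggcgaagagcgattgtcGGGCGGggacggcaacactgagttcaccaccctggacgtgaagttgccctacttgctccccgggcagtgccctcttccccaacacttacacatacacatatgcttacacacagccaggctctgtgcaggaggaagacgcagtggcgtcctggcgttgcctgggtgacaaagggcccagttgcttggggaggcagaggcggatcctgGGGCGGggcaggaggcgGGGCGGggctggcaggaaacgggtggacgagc
Casp8: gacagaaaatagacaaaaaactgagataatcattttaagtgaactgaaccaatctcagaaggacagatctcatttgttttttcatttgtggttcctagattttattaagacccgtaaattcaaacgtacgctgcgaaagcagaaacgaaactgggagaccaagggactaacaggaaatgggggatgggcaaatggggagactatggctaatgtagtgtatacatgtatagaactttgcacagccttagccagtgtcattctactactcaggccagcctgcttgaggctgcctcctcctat
Bax: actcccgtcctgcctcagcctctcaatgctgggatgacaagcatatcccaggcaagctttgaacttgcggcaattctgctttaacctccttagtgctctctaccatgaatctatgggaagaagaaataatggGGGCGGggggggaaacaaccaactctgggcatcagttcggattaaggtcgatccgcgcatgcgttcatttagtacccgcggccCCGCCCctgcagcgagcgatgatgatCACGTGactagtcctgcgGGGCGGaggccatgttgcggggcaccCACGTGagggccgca
Bbc3: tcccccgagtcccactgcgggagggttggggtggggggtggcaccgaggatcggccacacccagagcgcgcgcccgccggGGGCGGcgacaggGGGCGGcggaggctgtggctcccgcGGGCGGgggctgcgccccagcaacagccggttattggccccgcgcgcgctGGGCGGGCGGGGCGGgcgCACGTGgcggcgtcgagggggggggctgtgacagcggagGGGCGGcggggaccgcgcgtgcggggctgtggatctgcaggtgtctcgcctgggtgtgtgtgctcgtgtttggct
The Bax window held 2 copies of CACGTG and 3 of GGGCGG, and the Bbc3 window shown held 1 and 7. The other windows of Bbc3 held no CACGTG, with 5 and 4 copies of GGGCGG. Casp6 had 3 copies of GGGCGG and no CACGTG, and the window of Casp8 had neither. Over all 32851 promoter windows of this length, 35.7% held GGGCGG and 7.15% held CACGTG. A p53 half-site, searched because Bax, Bbc3 and Pmaip1 are textbook targets of p53, was present 1 time in the Bax window, in none of the other windows of the 7 genes and in 8.36% of all windows. A full p53 element was found in none of the 11 windows and in 0.0731% of all windows, and TATAAA was in none of the 11 against 13.6% of all. These matches describe the letters in the windows only.

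**Figure D1:**
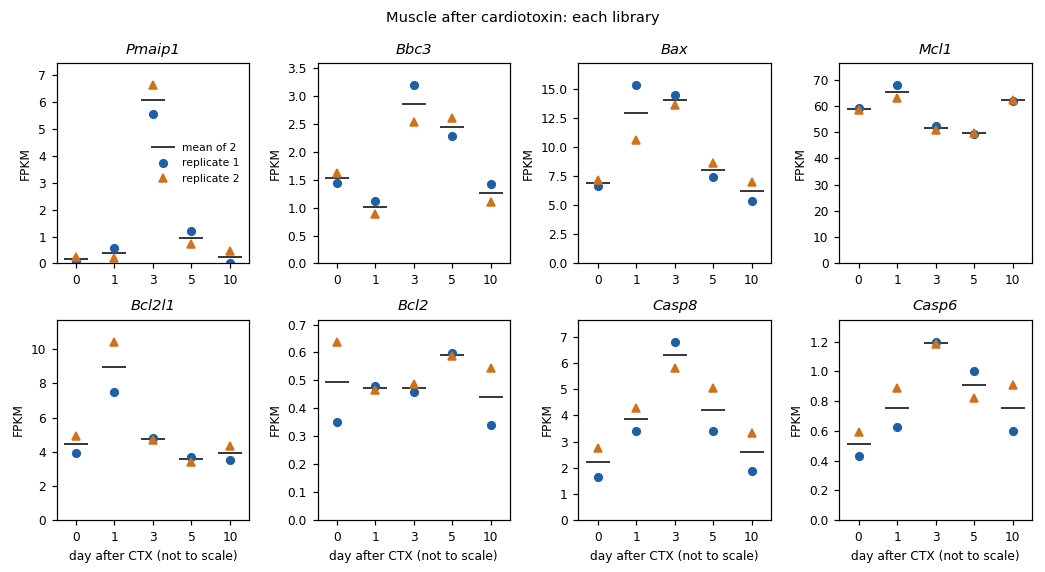
FPKM (y axis, from 0) of the 8 genes in muscle on days 0, 1, 3, 5 and 10 after CTX (x axis); points are single libraries, coloured by replicate number, and bars are means of 2. Pmaip1, Bbc3, Bax, Casp8 and Casp6 had their highest mean on day 3, Bcl2l1 and Mcl1 on day 1, and Bcl2 stayed between 0.339 and 0.638 FPKM.

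In regenerating muscle, 5 of the 8 genes were higher on day 3 than on day 0, where 48.8% of all tested genes were called and 24.5% were higher: the BH3-only genes Pmaip1 and Bbc3, the pore former Bax, and the caspases Casp8 and Casp6. Without replicate 1 of day 0 or without replicate 1 of day 3, Casp8, Casp6 and Bbc3 were not called. Of the survival genes, Bcl2l1 was called higher on day 1, and Mcl1 and Bcl2 passed no test against day 0. By day 10 no gene of the group differed from day 0 at this threshold.

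Pmaip1, which neutralises Mcl1 in particular, showed the widest range. Its level was 0.0910 and 0.255 FPKM on day 0, 0.581 and 0.201 FPKM on day 1, 5.57 and 6.63 FPKM on day 3, 1.21 and 0.709 FPKM on day 5, then 0 and 0.456 FPKM on day 10. These values rest on 3 and 9 reads on day 0, 22 and 7 on day 1, 291 and 355 on day 3, 52 and 37 on day 5, then 0 and 16 on day 10. A count of 0 in replicate 1 of day 10 allows a level of up to 0.0926 FPKM, counting error alone considered. Both day 3 libraries lay far above the other 8, and both day 5 libraries lay above all day 0, 1 and 10 libraries. The log2 fold change of Pmaip1 on day 3 against day 0 was 4.57 ± 0.79 (SE; adjusted p = 0.00278), and on day 5 against day 0 it was 1.98 ± 0.79 (adjusted p = 0.102). The study lists Pmaip1 among genes it picked on these same libraries, so its direction is not independent evidence.

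Bbc3, the other BH3-only gene and a partner of every survival member, had a narrower range. It was at 1.44 and 1.62 FPKM on day 0, 1.12 and 0.896 on day 1, 3.20 and 2.54 on day 3, 2.28 and 2.60 on day 5, then 1.42 and 1.10 on day 10. Day 1 was the lowest point except for replicate 2 of day 10, which lay between the day 1 libraries, and the libraries of days 3 and 5 lay above all others. Against day 0, Bbc3 gave a log2 fold change of 0.86 ± 0.21 (SE) on day 3 (adjusted p = 0.0115). The day 5 value of 0.64 ± 0.21 (adjusted p = 0.0577) and the day 1 value of -0.56 ± 0.21 (adjusted p = 0.137) missed the threshold. Between days 1 and 3 the rise was 1.42 ± 0.21 (adjusted p = 0.00417), and this call held in every alternative that was run.

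Bax forms the pore in the outer mitochondrial membrane, and it was the second most abundant of the 8 transcripts in every muscle library. It was at 6.67 and 7.13 FPKM on day 0, 15.3 and 10.6 on day 1, 14.4 and 13.6 on day 3, 7.44 and 8.66 on day 5, then 5.39 and 6.99 on day 10. The libraries of days 1 and 3 lay above all others, and the days 1 and 3 libraries overlapped. Bax rose by 1.01 ± 0.21 on the log2 scale by day 3 (SE; adjusted p = 0.00545), missed the threshold on day 1 with 0.87 ± 0.21 (adjusted p = 0.0504), and fell by 0.80 from day 3 to day 5 (SE 0.21; adjusted p = 0.0445), the last a call made in 10 of 19 alternatives. The exons of Bax share 192 bases with Gm45808 on the same strand, so reads there cannot be assigned with certainty.

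Casp8 and Casp6 followed the same order of days. Casp8 was at 1.64 and 2.77 FPKM on day 0, 3.40 and 4.29 on day 1, 6.81 and 5.81 on day 3, 3.39 and 5.03 on day 5, then 1.89 and 3.34 on day 10. Casp6 was at 0.431 and 0.590 FPKM on day 0, 0.625 and 0.886 on day 1, 1.20 and 1.19 on day 3, 1.00 and 0.817 on day 5, then 0.600 and 0.905 on day 10. For both caspases the day 3 libraries lay above all 8 others, and the libraries of days 1 and 5 overlapped. On day 3 the log2 fold change against day 0 was 1.52 ± 0.34 (SE) for Casp8 (adjusted p = 0.00874) and 1.09 ± 0.28 for Casp6 (adjusted p = 0.0150).

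Among the survival genes, Bcl2l1 was at 3.94 and 4.92 FPKM on day 0, 7.52 and 10.4 on day 1, 4.81 and 4.70 on day 3, 3.68 and 3.42 on day 5, then 3.51 and 4.32 on day 10. Its day 1 libraries lay above the other 8, which spanned 3.42 to 4.92 FPKM. Bcl2l1 rose by 0.99 ± 0.20 on the log2 scale by day 1 (SE; adjusted p = 0.0371) and fell by 0.89 from day 1 to day 3 (SE 0.20; adjusted p = 0.0150). The adjusted p of the day 1 rise ranged from 0.0317 to 0.453 over the alternatives and the call was made in 7 of 19 of them.

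Mcl1, which encodes a short-lived survival protein, was the highest of the 8 transcripts in every muscle library. It was at 59.3 and 58.4 FPKM on day 0, 67.9 and 62.9 on day 1, 52.4 and 50.9 on day 3, 49.4 and 49.8 on day 5, then 62.1 and 62.3 on day 10. The days 3 and 5 libraries lay below all others, but the step was small. Mcl1 fell by 0.34 on the log2 scale from day 1 to day 3 (SE 0.11; adjusted p = 0.0456), a call made in 6 of 19 alternatives. Its difference of -0.19 ± 0.11 between day 3 and day 0 (adjusted p = 0.178) became 0.23 under quantile normalization, which moved the median of all genes by -0.12 in that comparison.

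Bcl2 was low throughout, at 0.351 and 0.638 FPKM on day 0, 0.480 and 0.465 on day 1, 0.459 and 0.486 on day 3, 0.596 and 0.587 on day 5, then 0.339 and 0.543 on day 10. The day 0 pair spanned every other library except replicate 1 of day 10. No comparison called Bcl2, and its differences from day 0 were between -0.12 and 0.26 on the log2 scale with an SE of 0.34. Its exons share 558 bases with D630008O14Rik on the other strand, and whether counting used the strand is not given in the sources used here.

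Counted together, 1 of the 8 genes was called on day 1 against day 0 (Bcl2l1, higher), where 6% of all tested genes were called. On day 3 against day 0, 5 of 8 were called, all higher. Under the thresholds the study states for DEGs, which add a log2 fold change of 2 or more to the same adjusted p, only Pmaip1 remained, where 13.3% of all genes were DEGs. The median log2 fold change of the 8 genes was 0.93 on day 3 against day 0, and that of all genes tested was 0.01. No gene of the group was called on day 5 against day 0 (25.5% of all genes) or on day 10 against day 0 (0.00597%, a single gene). At an unadjusted p under 0.05, limma gave 6736 of 16753 genes for day 5 and 1697 for day 10, among them 5 of the 8 genes on day 5 and none on day 10.

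From day 1 to day 3, 4 of 8 genes were called against 31.1% of all genes: Pmaip1 rose by 3.77 ± 0.79 (SE, log2; adjusted p = 0.0120) and Bbc3 also rose, while Bcl2l1 and Mcl1 fell. The calls of Pmaip1 and Bcl2l1 were each made in 14 of 19 alternatives. Pmaip1 was again the only DEG, against 6.02% of all genes. From day 3 to day 5, Bax alone was called lower, against 12.7% of all genes in either direction. From day 3 to day 10, 4 of 8 were called against 37.9% of all genes, each of them lower against 18.8% of all genes that were. Pmaip1 fell by 4.71 (SE 0.79; adjusted p = 0.00367), Casp8 fell by 1.29 (SE 0.34; adjusted p = 0.0221), Bax fell by 1.18 (SE 0.21; adjusted p = 0.00427) and Bbc3 fell by 1.12 (SE 0.21; adjusted p = 0.00544). Pmaip1 was the only DEG among them, against 8.28% of all genes. The median over the 8 genes was -0.87, and that over all genes -0.01. The call of Casp8 was made in 14 of 19 alternatives and the other 3 in all 19.

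**Figure D2:**
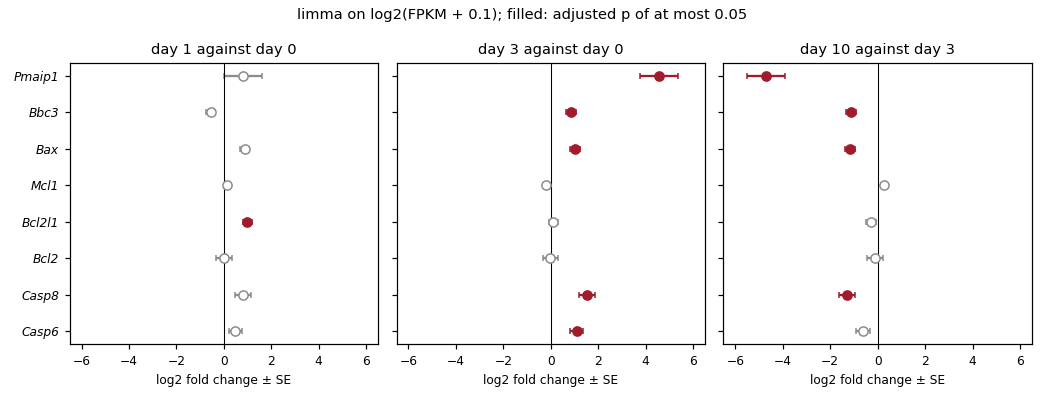
Log2 fold changes on the log2(FPKM + 0.1) scale (x axis; point and SE) of the 8 genes (y axis) on day 1 against day 0, day 3 against day 0 and day 10 against day 3; filled points had an adjusted p of at most 0.05. On day 3, Pmaip1 stood at 4.57 and Bbc3, Bax, Casp8 and Casp6 between 0.86 and 1.52, while Mcl1, Bcl2l1 and Bcl2 lay between -0.19 and 0.11.

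The calls of day 3 against day 0 depended unequally on single libraries. A term for Xist expression can be estimated from day 3 alone, the only day whose 2 libraries differed in Xist. With the term, day 3 against day 0 sets replicate 2 of day 3 alone against day 0, so it cannot separate Xist from that library. The log2 fold changes were then 1.40 for Casp8, 1.09 for Casp6 and 0.70 for Bbc3, as without replicate 1 of day 3. Casp8, Casp6 and Bbc3 were not called without replicate 1 of day 0 or without replicate 1 of day 3. Casp6 was not called without replicate 2 of day 3. Pmaip1 and Bax were called in all 19 alternatives run for this comparison. Such alternatives are not independent checks. Median-ratio scaling hardly changed the values, with 8181 genes called in place of 8179. The Xist term repeats 1 library left out, and leaving out a library of a day outside the comparison keeps the fold change as it was.

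Ratios of transcripts within a library do not depend on a scaling factor between libraries. Bax stood at 0.112 to 0.122 of the level of Mcl1 on day 0, 0.168 to 0.225 on day 1, 0.267 to 0.276 on day 3, 0.151 to 0.174 on day 5 and 0.0868 to 0.112 on day 10. Against Bcl2l1, Bax was 1.45- to 1.69-fold on day 0, 1.01- to 2.03-fold on day 1, 2.89- to 3.004-fold on day 3, 2.02- to 2.53-fold on day 5 and 1.54- to 1.62-fold on day 10. Against the summed level of Mcl1, Bcl2 and Bcl2l1, it was 0.105 to 0.111 on day 0 and 0.242 to 0.250 on day 3. Against Bcl2, Bax was 11.2- to 19.0-fold on day 0, 22.7- to 31.8-fold on day 1, 27.95- to 31.4-fold on day 3, 12.5- to 14.7-fold on day 5 and 12.9- to 15.9-fold on day 10. In the ratios to Mcl1 and to Bcl2l1, the day 3 libraries lay above those of each other day, whereas in the ratio to Bcl2 the libraries of days 1 and 3 overlapped and the highest was replicate 1 of day 1. Mcl1 led and Bax came second in all 10 libraries, Bcl2l1 or Casp8 followed Bax except in replicate 2 of day 3, where Pmaip1 did, and Pmaip1 or Bcl2 was lowest in each library.

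**Figure D3:**
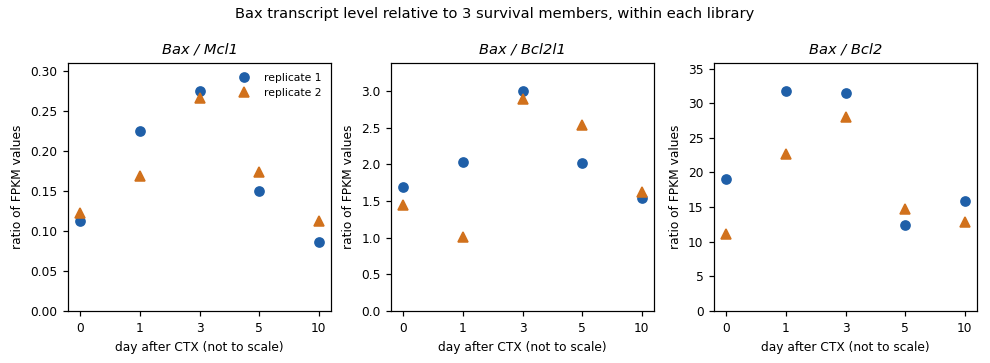
Ratio of the FPKM of Bax to that of Mcl1, Bcl2l1 and Bcl2 (y axes, from 0) in each muscle library by day after CTX (x axis); points are single libraries. The ratio to Mcl1 was 0.267 to 0.276 on day 3 and at most 0.225 in every other library, while the ratio to Bcl2 was highest, at 31.8, in a day 1 library.

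Some genes had profiles across the 10 muscle libraries that were close to those of the 8 genes. The measure was the root mean square difference of centred log2 values, taken for genes of the group whose daily means spanned at least 1 on that scale. Casp8 was closest to Clip2 (0.103) and Myh9 (0.110), Bax to Stard3nl (0.120) and Rbm14 (0.133), and Casp6 to Dstn (0.126) and Spred1 (0.135). Bcl2l1 was closest to Slc39a14 and Nfkbia (0.190 each), and Bbc3 to 4931406C07Rik (0.190) and Tshz3 (0.233). For Pmaip1 the closest genes, Msln (0.525) and Tmsb10 (0.529), lay further away. The measure is not scaled by the span of a gene. Daily means of Pmaip1 spanned 4.71, and those of the other genes measured 1.09 to 1.52, so these distances do not rank how unusual the profiles are.

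Around the 8 genes, 53 other genes of apoptosis were read from lists of caspases, Bcl2 family members, apoptosome and mitochondrial proteins, inhibitors, death receptors, DNA cleavage substrates and p53 targets, of which 51 were tested in muscle. These lists were set with earlier results known. On day 3 against day 0, 21 of these 51 were higher and 11 lower, where 48.8% of all genes were called and 24.5% were higher, with a median log2 fold change of 0.27, against 0.01 for all genes. The counts of single lists that follow include the 8 genes and stand against the same shares of all genes. All 3 initiator caspases, Casp2, Casp8 and Casp9, were higher, with Casp9, which the apoptosome activates, at 1.24 ± 0.22 (SE; adjusted p = 0.00314) and Casp2 at 1.05 ± 0.21 (adjusted p = 0.00522). Of 7 BH3-only genes tested, 5 were higher, with Bmf at 2.31 ± 0.15 and Bcl2l11 (Bim) at 1.36 ± 0.22 beside Bbc3, Pmaip1 and Bik, and Bid was lower at -0.69 ± 0.14. Among the pore formers, Bok at 2.42 ± 0.43 was higher like Bax, and Bak1 differed by 0.20 ± 0.20 (adjusted p = 0.440).

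The apoptosome and mitochondrial list split on day 3. Apaf1, the scaffold of the apoptosome, was higher by 2.07 ± 0.26 (SE, log2; adjusted p = 0.000853), and Cycs (cytochrome c) and Endog, an endonuclease held in mitochondria, were lower, with differences of -1.69 ± 0.16 (adjusted p = 0.000358) and -1.81 ± 0.12 (adjusted p = 0.000263). The p53 list split as well: Cdkn1a (p21) was at 21.6 to 24.7 FPKM on day 0 and 181 to 264 FPKM on day 3, a difference of 3.24 ± 0.43 (adjusted p = 0.000995), while Phlda3 differed by -1.77 ± 0.21 (adjusted p = 0.000638) and Mdm2 by 0.03 ± 0.16 (adjusted p = 0.881). In this list 4 of 10 were higher and 3 lower. Casp1, an inflammatory caspase, was higher by 3.06 ± 0.43 (adjusted p = 0.00125). Bcl2a1b was called higher but was listed at 0 in both day 0 libraries, and it shares sequence with near-identical copies, so its fold is uncertain.

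**Figure D4:**
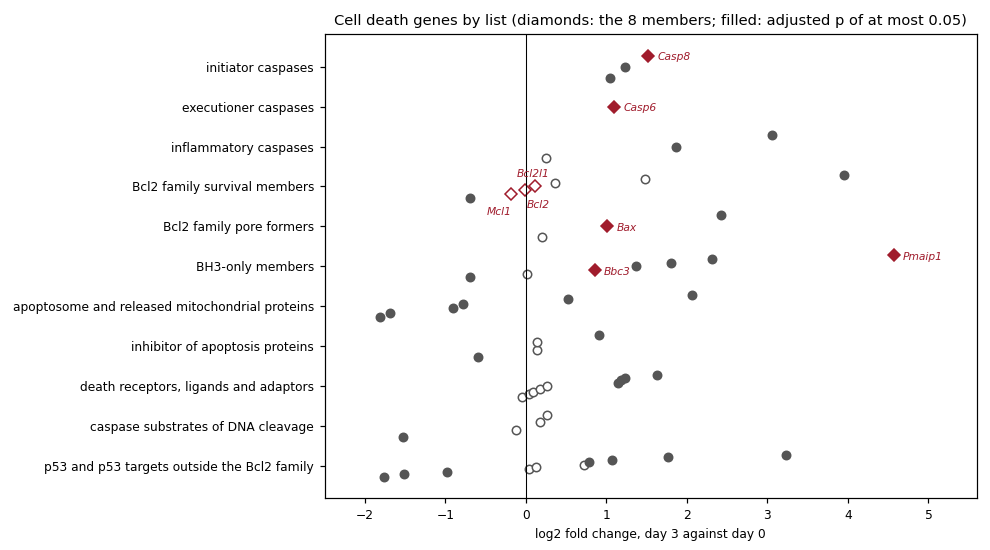
Log2 fold change on day 3 against day 0 in muscle (x axis) of tested genes of 11 apoptosis lists (y axis), with Casp6 alone shown of the executioner caspases; diamonds are the 8 genes, circles other genes, and filled symbols had an adjusted p of at most 0.05. Pmaip1 at 4.57 lay furthest to the right, and the apoptosome and mitochondrial list ran from -1.81 to 2.07. The circle at 3.95 is Bcl2a1b, listed at 0 on day 0, whose fold depends on the pseudocount.

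Of these 51 genes, day 1 gave 5 above and 4 below day 0, beside a share of 6% called over all genes. Day 5 gave 10 above and 6 below, beside 25.5%, and day 10 gave none. The largest rises and falls on day 1 were Eda2r (2.41 ± 0.44 SE, log2; adjusted p = 0.0309), Tnfrsf1a and Apaf1 upwards, and Dffa, Endog and Cycs downwards. From day 3 to day 10, 9 were higher and 15 lower, where 37.9% of all genes were called, among the latter Cdkn1a at -2.64 ± 0.43 (adjusted p = 0.00336), Casp1 at -2.27 ± 0.43 (adjusted p = 0.00608) and Bmf at -1.98 ± 0.15 (adjusted p = 0.000558). Cycs rose by 1.73 ± 0.16 over the same days (adjusted p = 0.000614).

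In C2C12 cells no gene of the group was called in any comparison, and the groups of 2 libraries in GM were wide. In simulated data of this table the fit recovered 0 of 200 genes changed by 1 on the log2 scale. A gene not called here can thus have changed by that much. In control cells in GM, Bax was at 43.0 and 80.9 FPKM, Bcl2l1 at 30.3 and 10.7, and Pmaip1 at 0.576 and 0, the last resting on 50 reads and no read, a count that allows up to 0.114 FPKM. The same pair differed in markers of cycling cells, whose summed level was 59.5 FPKM in replicate 1 and 204 in replicate 2, and in ribosomal RNA, at 0.559% and 28.1% of reads; their part was not tested. Over all 8 libraries, the 4 T and NK cell markers summed to at most 0.00986 FPKM, the 4 endothelial markers to 0.197 and the 8 macrophage and monocyte markers to 10.1. The 4 fibroadipogenic markers were not low, at 884 to 1703 FPKM in GM.

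**Figure D5:**
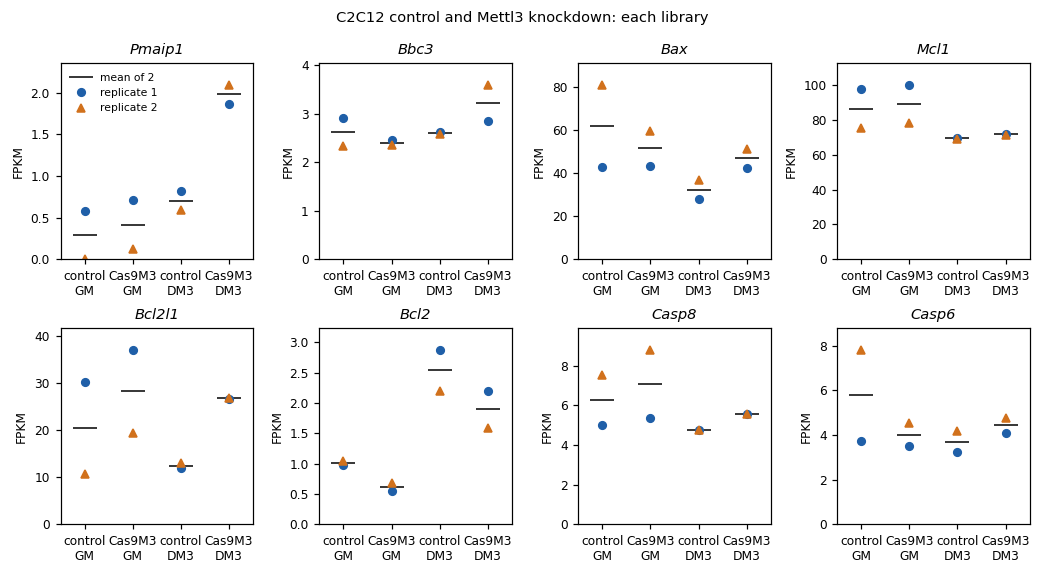
FPKM (y axis, from 0) of the 8 genes in control and Cas9M3 C2C12 cells in GM and on DM3 (x axis); points are single libraries, coloured by replicate number, and bars are means of 2. On DM3, Bcl2l1 was at 11.9 and 13.01 in control and 26.7 and 26.9 in Cas9M3 cells, and the GM pairs of Bcl2l1 and Bax were wide.

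On DM3, the level of Bcl2l1 was 11.9 and 13.01 FPKM in control cells and 26.7 and 26.9 FPKM in Cas9M3 cells, so the groups did not overlap. For 2 libraries against 2 in random order such separation has a probability of 0.333, and its share over all genes was not counted. The log2 fold change was 1.10 ± 0.52 (SE; adjusted p = 0.352) with the GM libraries in the fit, and in a fit of the DM3 libraries alone the same difference had an SE of 0.10 and an adjusted p of 0.00752. Pmaip1 was at 0.814 and 0.594 FPKM in control and 1.86 and 2.09 in Cas9M3 cells, with a log2 fold change of 1.38 ± 1.00 (adjusted p = 0.583) that became an SE of 0.22 and an adjusted p of 0.0221 in the fit of DM3 alone. The fit of DM3 alone called 2637 of all 13824 genes, and the fit with the GM libraries 274. Both genes thus passed or missed the threshold with the choice of libraries in the fit. With the replicate number as a block their adjusted p was 0.202 and 0.349. Bax was at 28.1 and 36.6 FPKM in control and 42.4 and 51.2 in Cas9M3 cells, with no overlap and a log2 fold change of 0.54 ± 0.35 (adjusted p = 0.529).

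The remaining genes differed less between the lines on DM3. Bbc3 was at 2.63 and 2.57 FPKM in control and 2.84 and 3.59 in Cas9M3 cells, Casp8 at 4.78 in both control libraries and 5.57 and 5.55 in Cas9M3 cells, and Mcl1 at 69.7 and 69.4 against 72.0 and 71.6. Bcl2 went the other way, at 2.88 and 2.204 FPKM in control and 2.198 and 1.59 in Cas9M3 cells, the groups being separated by a small margin, and Casp6 overlapped, at 3.23 and 4.16 against 4.11 and 4.75. None of the 8 was called here, where 1.98% of all genes were. The median log2 fold change was 0.27 over the 8 genes and -0.05 over all genes, and the counts of all genes called rose from 274 to 505 with the replicate block. On DM3 the 7 markers of myoblasts and new myotubes summed to 327 to 365 FPKM in control cells and 10.4 to 13.5 in Cas9M3 cells, the 6 of mature fibres to 412 to 460 and 9.85 to 12.5, and those of cycling cells to 51.2 to 59.4 and 20.7 to 21.5. The 4 fibroadipogenic markers went the other way, at 249 to 311 FPKM in control and 1002 to 1149 in Cas9M3 cells. Their part in the differences above was not tested.

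In GM, Bcl2 was at 0.986 and 1.05 FPKM in control and 0.557 and 0.684 in Cas9M3 cells, with a log2 fold change of -0.64 ± 0.29 (SE; adjusted p = 0.584). Its libraries did not overlap between the lines, while those of the other genes of the group did. Groups of 2 libraries in random order separate fully with a probability of 0.333, and the share of all genes so separated was not counted. Cas9M3 cells in GM had 43.3 and 59.6 FPKM of Bax, 37.1 and 19.5 of Bcl2l1, 100.3 and 78.3 of Mcl1, and 0.707 and 0.120 of Pmaip1. In this comparison 0% of all genes were called with limma, and 1244 of 13824 had an unadjusted p under 0.05.

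Bcl2 was higher on DM3 than in GM in every library of both lines, without passing the test. Its DM3 libraries, at 1.59 to 2.88 FPKM, lay above its GM libraries, at 0.557 to 1.05 FPKM. The log2 fold change on DM3 against GM was 1.23 ± 0.29 (SE) in control cells (adjusted p = 0.114) and 1.46 ± 0.29 in Cas9M3 cells (adjusted p = 0.117). Pmaip1 was likewise highest on DM3 in each line, by 1.62 ± 1.00 (adjusted p = 0.406) and 2.30 ± 1.00 (adjusted p = 0.418). Bax differed between control DM3 and control GM by -0.88 ± 0.35 (adjusted p = 0.261), and Mcl1 was at 69.4 to 72.0 FPKM in all DM3 libraries and 75.5 to 100.3 in all GM libraries, without passing the test in either line.

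The counts of called genes of the group were 0 of 8 for control DM3 against GM, where 1.14% of all genes were called, and 0 of 8 for Cas9M3 DM3 against GM, where 0.0289% were. Without replicate 1 of control GM, a single library is left in that group. The log2 fold changes in the first of these comparisons were then 2.99 for Pmaip1, -1.33 for Bax and -1.07 for Casp6. They were 1.62, -0.88 and -0.55 with all libraries. With the replicate block the numbers of all genes called were 411 in place of 158, and 9 in place of 4, with no gene of the group among them. At an unadjusted p under 0.05, limma gave Bax and Bcl2 in control cells, beside 2520 of all 13824 genes. In Cas9M3 cells it gave Bcl2, beside 1748 of all genes. The difference between the lines in their response to differentiation, tested as an interaction, called 0 of 8 genes and 0% of all genes, with 1198 genes at an unadjusted p under 0.05; the largest of the group was 0.75 ± 0.49 (SE, log2) for Bax. None of the 44 other apoptosis genes tested in C2C12 cells was called in any of the 5 comparisons.

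The order of levels in C2C12 cells had the same top as in muscle. Mcl1 led in 7 of 8 libraries, and Bax led in replicate 2 of control GM. In the other 7, Bax was at 28.1 to 59.6 FPKM and lay between Mcl1 and Bcl2l1. Pmaip1 or Bcl2 was lowest in each of the 8. Relative to Mcl1, Bax was at 0.403 to 0.527 in control DM3 cells and 0.589 to 0.715 in Cas9M3 DM3 cells, and relative to Bcl2l1 it was 2.36- to 2.81-fold and 1.59- to 1.90-fold. The tables were scaled separately, so levels are not compared between muscle and cells. Across the 8 C2C12 libraries the closest profiles were Tmco4 (0.182) and Ninl (0.192) for Bcl2l1, H2ac19 (0.184) and Slc25a40 (0.243) for Bcl2, and Npr3 (0.214) and Slc25a23 (0.438) for Pmaip1, on the same root mean square measure.

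The 8 genes lie on 5 chromosomes of GRCm38 in the GENCODE M21 annotation. Bcl2 spans 106538178 to 106714274 on the minus strand and Casp8 spans 58795374 to 58847503 on the plus strand of chromosome 1. Bcl2l1 spans 152780668 to 152831728 on the minus strand of chromosome 2. Mcl1 spans 95658788 to 95663176 and Casp6 129901425 to 129914103 on the plus strand of chromosome 3. Bax spans 45461697 to 45466898 on the minus strand and Bbc3 16308393 to 16318205 on the plus strand of chromosome 7, and Pmaip1 spans 66458533 to 66465565 on the plus strand of chromosome 18. FPKM covers all their exons, from 1576 bases for Bax to 9157 for Bcl2, so the values do not tell transcripts of a gene apart.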

How the data were processed

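RNA-seq of skeletal muscle after CTX (10 libraries) and of control and Cas9M3 C2C12 cells (8 libraries) was analysed; the other 8 libraries of the series, with overexpressed Mettl3 or GFP, were not analysed here. HISAT2 alignment to GRCm38 and featureCounts were used by the authors, who deposited FPKM obtained through the fpkm function of DESeq2; the builds GRCm38 and mm10 are named in the submitters' processing notes. Each table was scaled on its own, so no test crossed the tables.

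Samples were grouped by their labels. Genes that reached 0.5 FPKM in 2 or more libraries of a table were tested on log2(FPKM + 0.1) in R 4.3.3 with limma 3.58.1 (lmFit, then eBayes, trend on), all groups of a table in 1 fit, with Benjamini-Hochberg adjustment over all genes tested and a call where the adjusted p was 0.05 or less. The fit was tested on simulated data with 200 genes changed, of 16753 in muscle and 13824 in C2C12 cells. At a log2 change of 1 it recovered 0 of them in either table. At 2 it recovered 141 in muscle and 112 in C2C12 cells, and at 4 it recovered 175 and 167. A gene that was not called can therefore have changed. On day 3 against day 0 in muscle far more genes were called than were changed in the simulation, so its recovery there can differ. The study's DEG rule, which adds a log2 fold change of 2 or more, is given beside it. Python 3.11.15 with numpy 2.4.6, pandas 2.3.3 and matplotlib 3.10.9 served for tables and plots.

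Reads on a gene were recovered from the size of 1 read in each library and the GENCODE M21 exon length, at least 97.2% of low values being within 0.05 of a whole number of reads; for Pmaip1 in muscle a length of 2646 bases replaced 2732, the nearest length to give whole reads in every library, since the annotated one did not. They were used for description only. The 8 genes and the gene lists were chosen with earlier results of these data known. The genes named beside them are, per comparison, up to 3 list genes called with the largest change in each direction, and the 2 genes nearest in profile with a mean of at least 1 FPKM; further list genes were named after their values were seen. Some list genes are counted in the totals but are not reported here by name.

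Whether equal replicate numbers deviate together from the group means was checked by correlation. The 6 values between groups were 0.278 to 0.680 in the C2C12 table, so the numbers pair those libraries by this measure, with no reason given in the labels; the 10 in the muscle table were -0.0187 to 0.211. Alternatives were pseudocounts of 1 and 0.01, quantile normalization, median-ratio scaling, a filter at 1 FPKM or none, only the groups compared, the replicate block, a term for Xist expression, and each library left out in turn.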

Additional observations from a re-analysis of the deposited data

How the results depend on the processing

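Alternatives moved the number of the 8 genes called in several comparisons, and the cause was not tested. For day 1 against day 0 (1 gene), the count was 2 with a pseudocount of 1 or a filter at 1 FPKM, 0 with no filter, quantile normalization, only the groups compared or a term for Xist expression, and 0 to 1 with a library left out. For day 3 against day 0 (5), it was 2 with the Xist term, 4 with quantile normalization (Bbc3 lost) and 2 to 5 with a library left out. For day 5 against day 0 (0), it was 1 with a pseudocount of 1 and 0 to 1 with a library left out. For day 3 against day 1 (4), it was 3 with quantile normalization or a pseudocount of 1 (Mcl1 lost) or 0.01 (Pmaip1 lost), 2 with only the groups compared, 1 with the Xist term and 1 to 3 with a library left out, the 1 being without either day 3 library. For day 5 against day 3 (1), it was 2 with a pseudocount of 1, quantile normalization or only the groups compared, 0 with no filter or the Xist term, and 0 to 2 with a library left out. On DM3 it was 2 in place of 0 with only the groups compared, and for control DM3 against GM it was 0 to 3 with a library left out. The count for day 10 against day 3 was 3 or 4 throughout.

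The muscle libraries share only replicate numbers. With the replicate block the count was 1 for day 5 against day 0 (Casp8) and 0 for day 5 against day 3 (Bax lost). In C2C12 cells, where the numbers pair the libraries, the block changed no other call of the 8 genes.

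Only uncalled fold changes (log2) turned sign. With the Xist term Bcl2 was 0.058 on day 1 and 0.023 on day 3 against day 0. With quantile normalization Mcl1 was 0.23, 0.031 and -0.11 for day 3 and day 5 against day 0 and day 10 against day 3, Bcl2 was -0.21 for day 5 against day 0 and 0.31 for day 10 against day 3, Bcl2l1 was 0.065 for Cas9M3 DM3 against GM, and Mcl1 was -0.17 in the interaction. Pmaip1 was 0.044 for day 10 against day 0 with a pseudocount of 1 and -0.50 in the interaction with a pseudocount of 0.01. With a library left out, Bcl2 ran from -0.37 to 0.35 on day 1, -0.37 to 0.34 on day 3, -0.093 to 0.62 on day 5 and -0.47 to 0.24 on day 10 against day 0, -0.035 to 0.032 for day 3 against day 1 and -0.38 to 0.17 for day 10 against day 3. Bcl2l1 ran from -0.048 to 0.26 on day 3 against day 0, Bax from -0.13 to 0.40 for day 3 against day 1, and on day 10 against day 0 Casp8 from -0.17 to 0.62, Bax from -0.35 to 0.018 and Pmaip1 from -1.38 to 1.09. Between the lines in GM, the ranges were -0.95 to 0.086 for Casp6, -0.19 to 0.51 for Casp8, -0.67 to 0.24 for Bax, -0.17 to 1.33 for Bcl2l1, -0.14 to 0.23 for Mcl1, -0.26 to 0.036 for Bbc3 and -0.68 to 2.07 for Pmaip1. For control DM3 against GM they were -1.28 to 0.22 for Bcl2l1 and -0.15 to 0.15 for Bbc3, and for Cas9M3 DM3 against GM -0.034 to 0.33 for Casp6, -0.65 to 0.050 for Casp8, -0.35 to 0.11 for Bax and -0.47 to 0.46 for Bcl2l1. In the interaction they were -0.29 to 0.41 for Casp8, -0.23 to 1.27 for Bcl2l1, -0.18 to 0.19 for Mcl1 and -0.69 to 2.06 for Pmaip1. A filter at 1 FPKM gave no value for Bcl2 in muscle, and the interaction was not run with only the groups compared.

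Counts over all genes moved as well. With the Xist term 0 genes were called on days 1 and 5 against day 0 and for day 5 against day 3, 5855 in place of 8179 on day 3 against day 0, 1369 in place of 5213 for day 3 against day 1, and 3923 in place of 6346 for day 10 against day 3. With only the groups compared 2637 genes in place of 274 were called on DM3, 0 in place of 1005 on day 1, and 1340 in place of 4267 on day 5. With a library left out the number ran from 9 to 1852 on day 1, 19 to 4777 on day 5, 0 to 883 on DM3 and 0 to 3684 for control DM3 against GM. Each group had 2 libraries, and outside day 3 the muscle values of Pmaip1 rest on 0 to 52 reads.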
